A study of Mus musculus with 9 samples.

Results

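Immunoglobulin gene segments are the variable (V), diversity (D), joining (J) and constant (C) pieces from which antibody genes are assembled. This account covers the segments of the heavy, kappa and lambda chains that the authors' tables list as changed in T cells kept in conditioned medium. Members were chosen by name alone, from the gene symbol or, where a row had none, from the name of its Ensembl ID. They number 37 of the 3495 genes in either table, and 395 such segments are annotated in the mouse reference GENCODE M21 (build GRCm38). Of the 37, 36 are in the authors' deposited table for adipocyte medium, 1 is in the table for stromal medium, and 0 are in both. The symbol was missing for 10 of the 36 and for the stromal member.

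The study measured RNA in splenic T cells of wild type (WT) C57BL/6 mice, isolated for CD3 by negative selection, which removes other cells with antibodies and leaves the T cells untouched. Each of 3 mice gave 1 sample to each of 3 groups, kept for 4 h in unconditioned medium, in medium conditioned by adipocytes (fat cells) or in medium conditioned by stromal cells. Every group shares the genotype, the spleen as source and the isolation, and by the labels the groups differ only in the medium. The labels used here give no age or sex of the mice and no source for the conditioning cells.

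A B cell joins 1 V segment (with a D segment in the heavy chain) to a J segment, and the joined exon is spliced to a constant region that sets the antibody class. Ighm and Ighd give the classes IgM and IgD of naive B cells, and Ighg1 and Igha give IgG1 and IgA after class switching. The membrane form of the antibody is the antigen-binding chain of the B cell receptor and signals through the proteins of Cd79a and Cd79b. T cells assemble receptors from other loci, and plasma cells carry antibody mRNA in great abundance, so a few such cells can be seen in a library of T cells. In bulk RNA, fewer cells of a type and less RNA per cell cannot be told apart.

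Each authors' table gives a gene's mean normalized count over all 9 samples, a log2 fold change against unconditioned medium with its standard error (SE), and an adjusted p for a change beyond 1.5-fold. Only genes with an adjusted p under 0.05 are listed. None of the 37 segments is in the authors' table of values by sample (0 of 2889 genes there), so neither the values in each mouse nor the part of a single library in a change could be looked at. Every value of a segment below is therefore the authors' own, and each 95% interval was computed from their SE.

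All 36 segments in the authors' deposited table for adipocyte medium were lower there than in unconditioned medium. The authors called 8.98% of the 21936 genes they tested lower and 5.52% higher, 14.5% in all. Against the 395 annotated segments the 36 make 9.11%, a share near that background, although how many segments were expressed enough to be tested is not known. Among all 3181 genes in the authors' deposited table, 61.9% were lower. The segments' median log2 fold change was -3.89 (14.8-fold lower), where the median over all genes listed was -1.07 and over those listed as lower -1.42. Segments are 1.13% of the genes listed, 26 of the 148 genes with a log2 fold change below -3 (17.6%) and 17 of the 78 below -4 (21.8%). The whole 95% interval lay below -1 for 31 of the 36 segments, ended above -1 for 5, and reached 0 for none. Only genes that passed a test beyond 1.5-fold are listed, so no interval could have reached 0. These counts largely follow from that threshold.

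**Figure D1:**
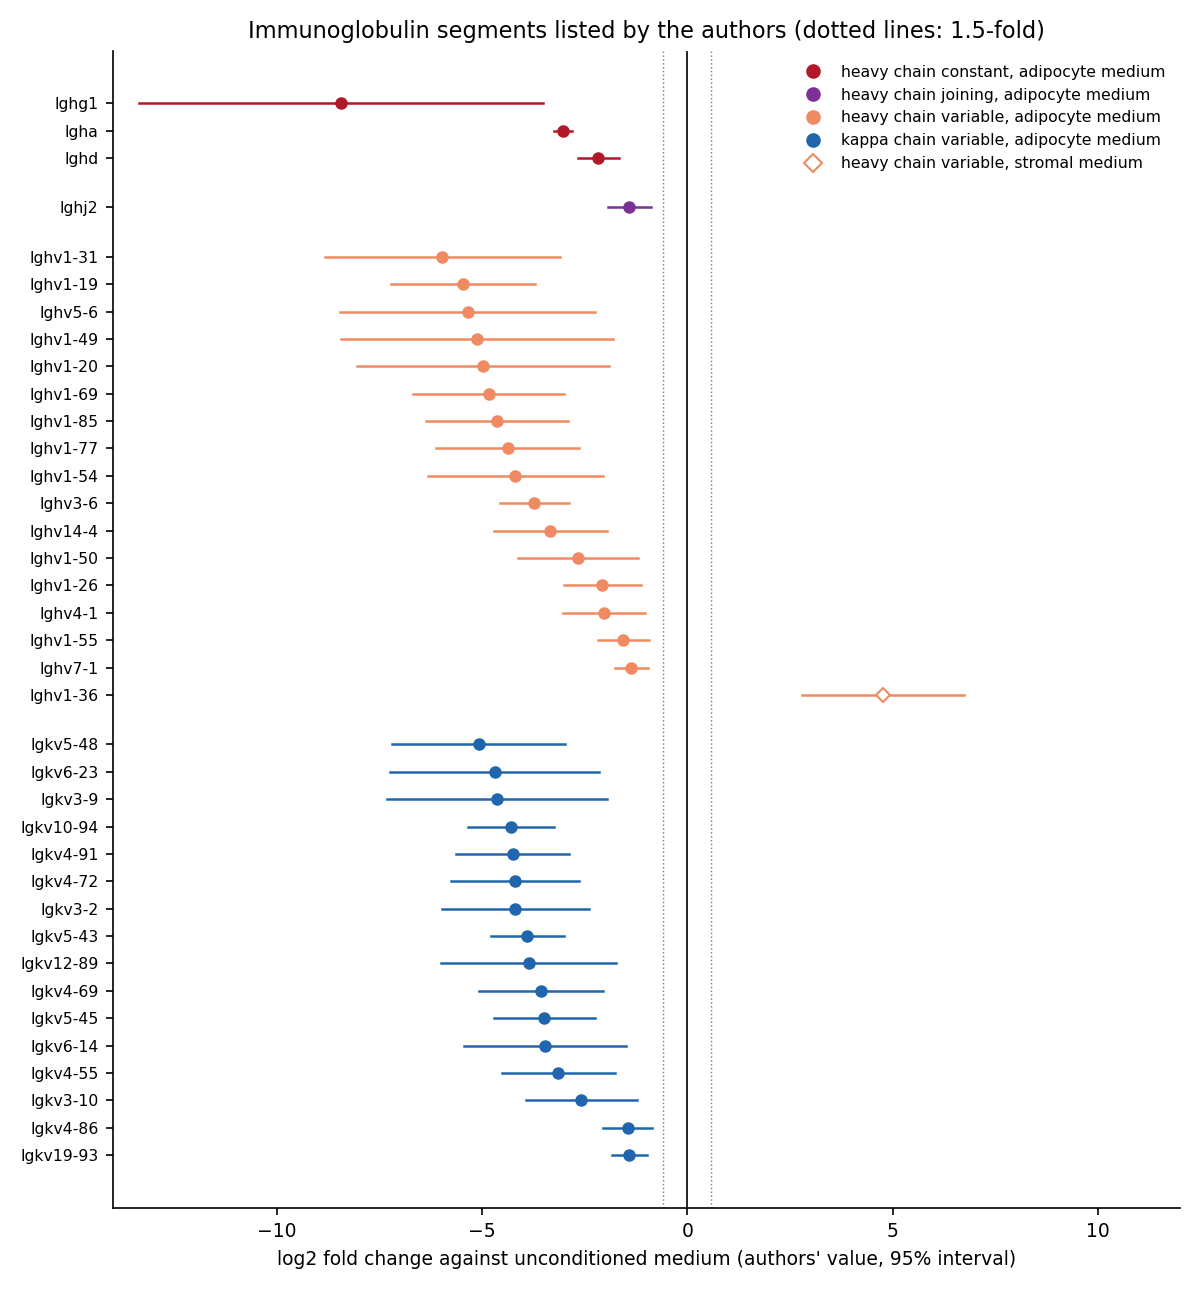
Log2 fold change of each listed segment against unconditioned medium (horizontal axis) as the authors deposited it, with bars for the 95% interval from their SE. Filled points are adipocyte medium and the open diamond is stromal medium, and the 36 filled points all lie left of 0, from Ighg1 at -8.44 to Ighv7-1 at -1.37.

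Of 8 heavy chain constant genes annotated, 3 were in the authors' deposited table for adipocyte medium, all lower: Igha, Ighd and Ighg1. Igha, the constant region of IgA, had the highest mean of the 37 listed segments, 5246 normalized counts over all samples in the authors' deposited table. Its log2 fold change there was -3.03 (SE 0.11, 95% interval -3.25 to -2.81, adjusted p 5.13e-99), or 8.16-fold lower. Since the 3 group means must average to 5246, that change places its unconditioned mean at or under 14021 and its adipocyte mean at or under 1717. Per kb of exon, the authors' deposited table puts Igha at 1966 normalized counts, Ighd at 135 and Ighg1 at 25.8. Igha stands 456th by mean level among the 3181 genes listed, so it was no rare transcript in these T cell libraries.

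Ighd, the constant region of IgD on naive B cells, had a log2 fold change of -2.17 (SE 0.26, 95% interval -2.67 to -1.66, adjusted p 1.88e-08) with a mean of 256.7 normalized counts in the authors' deposited table. Its interval does not meet that of Igha. Ighg1, the constant region of IgG1, had the most negative change of any segment in the authors' deposited table, -8.44, but with an SE of 2.51 its 95% interval runs from -13.36 to -3.52 (adjusted p 0.0144, mean 66.8 normalized counts). Its adipocyte mean can have been at most 0.576 normalized counts, so the size of that change rests on few or no reads, and its interval holds values smaller than the change of most V segments. Ighm, the constant region of IgM, is not in either table. A gene that is not listed may have been too variable, too low or less than 1.5-fold changed, and the tables do not tell these apart.

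Of 4 heavy chain J segments, the authors' deposited table lists Ighj2, with a log2 fold change of -1.41 (SE 0.27, 95% interval -1.93 to -0.89, adjusted p 0.0151) and a mean of 130 normalized counts. A J segment is the short last piece of the variable exon. The GENCODE M21 transcript of Ighj2 printed below, 5′ to 3′, is 48 bases long, while the exons annotated for the gene cover 100 bases. Either stretch is short, and over which bases the authors counted reads is not given. The capitals mark the codons for the tryptophan and glycine that J segments share.
Ighj2: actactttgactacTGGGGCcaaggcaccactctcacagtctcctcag
None of the 17 functional D segments was listed (0), nor any of the 3 D pseudogenes.

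V segments made up most of the members, 16 of the heavy chain and 16 of the kappa chain in adipocyte medium and 1 of the heavy chain in stromal medium. The 3′ ends of 8 of them are printed below from GENCODE M21 (GRCm38), 5′ to 3′ on the coding strand, because this is the stretch that joins the next segment and carries the cysteine by which V segments are recognised. Ighv7-1 and Igkv19-93 had the highest mean counts of their classes, Ighv1-19 and Igkv6-23 strong changes, and Igkv5-43 the smallest adjusted p of its class. Ighv1-36 is the stromal member, and Ighv1-85 and Igkv4-55 stand for the families with the most members. Capitals mark the cysteine codon, found as TGT or TGC directly after TATTAC or TATTTC or TACTAC or TATTAT or TACTAT in the last 40 bases of the coding strand.
Ighv7-1: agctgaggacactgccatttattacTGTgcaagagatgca
Ighv1-19: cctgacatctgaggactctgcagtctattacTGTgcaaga
Ighv1-36: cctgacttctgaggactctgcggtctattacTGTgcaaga
Ighv1-85: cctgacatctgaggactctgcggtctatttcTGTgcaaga
Igkv19-93: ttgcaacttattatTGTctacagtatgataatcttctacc
Igkv4-55: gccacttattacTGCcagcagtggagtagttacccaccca
Igkv5-43: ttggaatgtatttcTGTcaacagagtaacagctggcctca
Igkv6-23: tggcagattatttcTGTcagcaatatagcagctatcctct
All 33 V members hold this motif, and 271 of 348 annotated V segments (77.9%) do, pseudogenes included. The 4 kappa ends run further past the cysteine than the heavy ends do, since much of the third antigen-contact loop of a kappa chain is encoded in V itself.

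The 16 heavy chain V segments in the authors' deposited table for adipocyte medium are 13.9% of the 115 functional ones annotated, and all were lower, with a median log2 fold change of -4.29. They lie on chromosome 12 on the minus strand. Ighv7-1 had the highest mean of them, 563.5 normalized counts in the authors' deposited table, and the weakest change, -1.37 (SE 0.21, 95% interval -1.78 to -0.96, adjusted p 0.00153). Ighv1-26 came next by mean at 262.5 normalized counts, with a log2 fold change of -2.07 (SE 0.48, adjusted p 0.0144) in the authors' deposited table. The strongest changes there were those of Ighv1-31, -5.97 (SE 1.46, 95% interval -8.84 to -3.10, adjusted p 0.00236) at a mean of 8.52 normalized counts, and Ighv1-19, -5.47 (SE 0.90, 95% interval -7.23 to -3.71, adjusted p 9.37e-07) at a mean of 108.9. Ighv1-31 can have had an adipocyte mean of at most 0.401 normalized counts. Ighv1-55, the weakest after Ighv7-1, had -1.56 (SE 0.32, adjusted p 0.0171) at a mean of 135.6 in the authors' deposited table.

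Between these ends, the authors' deposited table gives log2 fold changes of -5.36 for Ighv5-6, -5.13 for Ighv1-49, -4.98 for Ighv1-20, -4.84 for Ighv1-69, -4.64 for Ighv1-85, -4.38 for Ighv1-77 and -4.19 for Ighv1-54. Ighv3-6 followed at -3.73 (SE 0.42, adjusted p 4.50e-12), the smallest adjusted p of the heavy V segments in the authors' deposited table. Ighv14-4 stood there at -3.35, Ighv1-50 at -2.66 and Ighv4-1 at -2.03. Ighv1-49 lay just inside the authors' threshold, with an adjusted p of 0.0499 in their deposited table at a mean of 4.78 normalized counts. No value just outside it can be given, since only genes that passed are listed.

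Ighv1 is the largest heavy V family of the mouse and held 11 of the 16, from 54 functional members annotated, with a median log2 fold change of -4.64 in the authors' deposited table. The families Ighv3, Ighv4, Ighv5, Ighv7 and Ighv14 had 1 each. None of the 70 heavy V pseudogenes was listed (0).

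The 16 kappa chain V segments in the authors' deposited table were 16% of the 100 functional ones annotated, all lower, with a median log2 fold change of -3.89 and a range from -5.08 to -1.41. They lie on chromosome 6, the 3 segments of the family Igkv3 on the plus strand and the others on the minus strand. Igkv19-93 had the highest mean, 290.3 normalized counts in the authors' deposited table, and the weakest change, -1.41 (SE 0.22, 95% interval -1.85 to -0.98, adjusted p 0.00185). Igkv6-23, next at 222.9 normalized counts, had a log2 fold change of -4.70 in the authors' deposited table with an SE of 1.30 (95% interval -7.25 to -2.15, adjusted p 0.0127). The most negative was Igkv5-48 at -5.08 (SE 1.07, 95% interval -7.19 to -2.98, adjusted p 3.36e-04) with a mean of 109.9 in the authors' deposited table. Igkv4-86, second weakest, had -1.45 (SE 0.31, adjusted p 0.0328) at a mean of 198.8 there.

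The smallest adjusted p of the kappa V segments in the authors' deposited table were those of Igkv5-43 at -3.90 (SE 0.45, adjusted p 8.36e-12) and Igkv10-94 at -4.30 (SE 0.54, adjusted p 1.58e-10). It further gives log2 fold changes of -4.64 for Igkv3-9, -4.26 for Igkv4-91, -4.20 for Igkv4-72, -4.19 for Igkv3-2, -3.87 for Igkv12-89 and -3.56 for Igkv4-69. Igkv5-45 stood at -3.49, Igkv6-14 at -3.47, Igkv4-55 at -3.14 and Igkv3-10 at -2.59 in the authors' deposited table. By family, Igkv4 held 5 of 26 functional segments, Igkv3 held 3 of 9, Igkv5 held 3 of 5, Igkv6 held 2 of 9, and Igkv10, Igkv12 and Igkv19 held 1 each.

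The other classes had no member. Neither the kappa constant gene (0 of 1), nor the kappa J segments (0 of 5), nor any of the 12 lambda segments was in either authors' table, and none of the 60 kappa V pseudogenes was. Over heavy, kappa and lambda together, 0 of 133 pseudogenes were listed against 32 of 215 functional heavy and kappa V segments (14.9%) in adipocyte medium. All chains taken whole, 9.22% of the 217 heavy and 9.64% of the 166 kappa segments were lower in the authors' deposited table, so the kappa V segments appear there without the constant gene that every kappa mRNA carries. Of the summed mean of 8715 normalized counts over the 36 segments, the heavy constant genes held 63.9%, heavy V 19.2%, kappa V 15.4% and Ighj2 1.49%.

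In stromal medium the authors called 1.81% of 33011 genes, 1.11% lower and 0.703% higher, and a single segment was among them. Ighv1-36 was higher than in unconditioned medium, with a log2 fold change of 4.76 (27.2-fold, SE 1.01, 95% interval 2.78 to 6.74, adjusted p 0.00301) and a mean of 15.5 normalized counts in the authors' deposited table. It is not in the table for adipocyte medium, and no other V segment is in the stromal one, so its direction has no companion. At such a level a single clone or library can carry a change, and which samples held its reads was not tested. The difference between the effects of both media was not tested for any segment, since the authors' tables compare each with unconditioned medium only, and they share those control samples.

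Ighv1-36 is close in sequence to Ighv1-19, which was lower in adipocyte medium. Over 351 aligned bases they differ at 18 (94.9% identity), and over the last 120 bases, printed 5′ to 3′ with the differing bases in capitals, at 6.
Ighv1-19: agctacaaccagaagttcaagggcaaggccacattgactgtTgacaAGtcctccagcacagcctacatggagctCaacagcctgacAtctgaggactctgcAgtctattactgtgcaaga
Ighv1-36: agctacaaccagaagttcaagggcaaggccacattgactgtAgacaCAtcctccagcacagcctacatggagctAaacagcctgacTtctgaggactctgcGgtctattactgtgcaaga
A read that covers none of these positions fits both segments, and the sources used here do not give how such reads were assigned.

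Such likeness is common among the members, so the value of a single V segment is uncertain where reads could be split or dropped. The closest annotated segment was 77.5% to 98.6% identical to each of the 33 V members over the aligned bases, and 16 had one at 95% or more. The median was 95.5% for heavy and 93.7% for kappa V members. Cut into windows of 50 bases, a V member shared a median of 28.1% of its windows exactly with another immunoglobulin segment. Igkv5-43 and Igkv5-45 are the nearest pair of listed kappa segments, with 6 differences over 379 bases (98.4% identity) and 0 in the last 120, and their log2 fold changes in the authors' deposited table were -3.90 and -3.49. Ighv1-50 and Ighv1-69 differ at 10 of 351 bases and stood at -2.66 and -4.84 in the authors' deposited table.

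The 5 V members with no window shared with any other segment were lower too. In the authors' deposited table their log2 fold changes were -1.37 for Ighv7-1, -1.41 for Igkv19-93, -3.87 for Igkv12-89, -5.08 for Igkv5-48 and -5.13 for Ighv1-49. They span nearly the whole range of the V members, and the weakest heavy and the weakest kappa V member are both among them.

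Low segments had the larger changes, and a low gene can be listed only with a large one, since the test was against 1.5-fold. Across the 36 segments of adipocyte medium, Spearman's rho between log2 fold change and mean normalized count was 0.49, a description over segments that share the same samples. Among the 11 segments with a mean under 30, the median log2 fold change in the authors' deposited table was -4.19, against -3.71 for the other genes listed as lower at that level. From 30 to 100 the medians were -4.30 over 11 segments and -2.11 over other genes, and from 100 to 300 they were -2.12 over 12 segments and -1.64. Igha and Ighv7-1 above 300 had a median of -2.20, against -1.21. A segment that passed had to differ, so these counts and medians over listed segments describe them and support no direction.

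**Figure D2:**
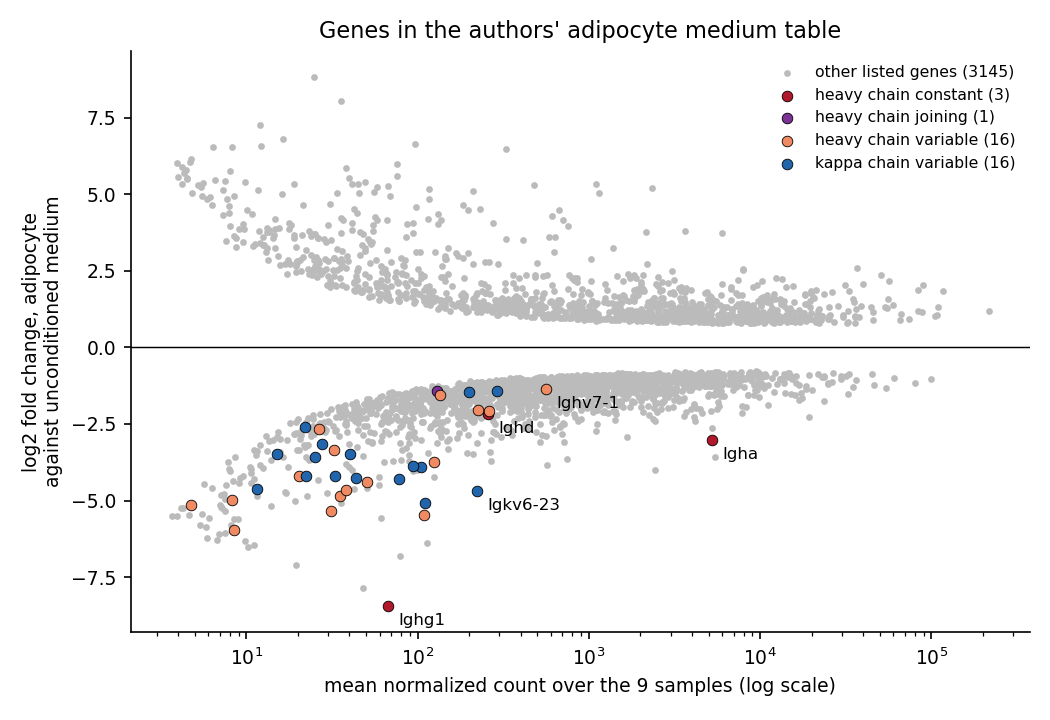
Mean normalized count over all samples on a log axis (horizontal) against the authors' log2 fold change in adipocyte medium (vertical) for the 3181 genes listed, with the immunoglobulin segments coloured by class. Igha lies far to the right of the other segments at -3.03, and most V segments lie at the lower left, where genes of other kinds are listed with large changes too.

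The log2 fold changes of the segments had larger SEs than those of other listed genes of their level from 30 normalized counts up. Between means of 30 and 100 the median SE of their log2 fold change in the authors' deposited table was 0.88, against 0.40 for other genes, and between 100 and 300 it was 0.44 against 0.24. Under 30 it was 1.01 against 0.92, hardly apart. Igkv6-23, with an SE of 1.30 at a mean of 222.9 in the authors' deposited table, and Igkv19-93, with 0.22 at 290.3, had like levels and very unlike errors. An SE combines counting error, which is larger where few reads are left after a large fall, with the spread between mice in both media. The table does not separate these, and whether single mice carried the reads of a segment was not tested.

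**Figure D3:**
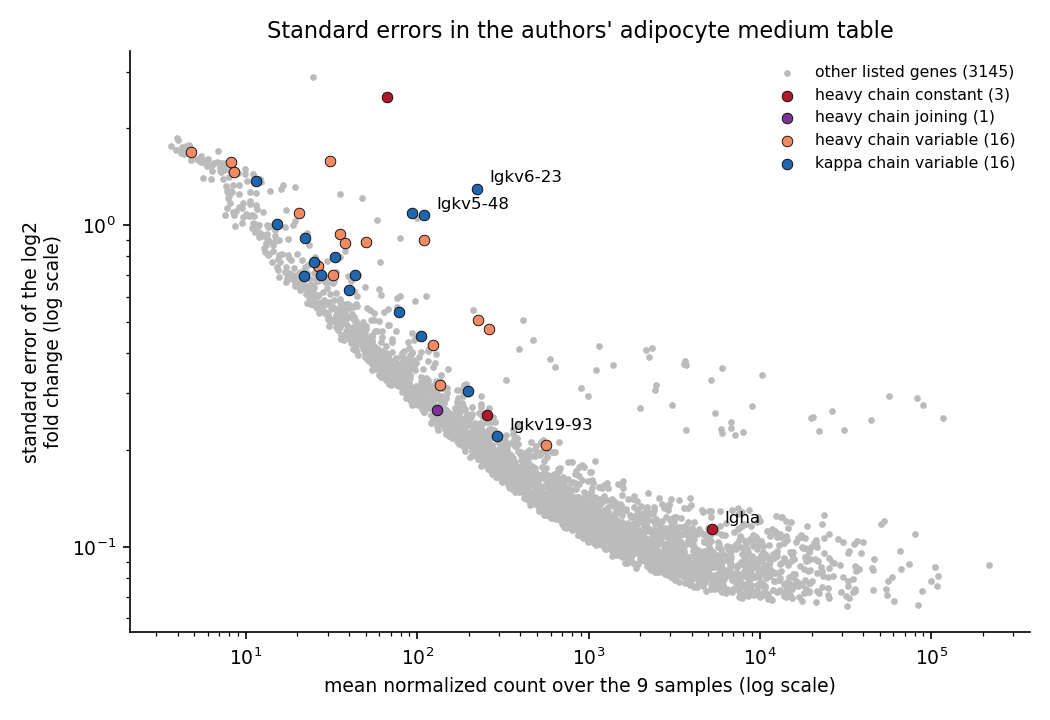
Mean normalized count on a log axis (horizontal) against the authors' SE of the log2 fold change on a log axis (vertical), with the immunoglobulin segments coloured by class and the other listed genes in grey. Many segments lie above the grey band, Igkv6-23 and Igkv5-48 among them, whereas Igkv19-93 and Igha lie in it.

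Position in the locus showed little relation with the change. Counted in order from the J segments, Spearman's rho between rank and log2 fold change was 0.13 over the 16 kappa and -0.10 over the 16 heavy V segments of adipocyte medium. Listed heavy V segments ran from Ighv5-6, the 10th of 185 from the J segments, to Ighv1-85, the 184th, and kappa V segments from Igkv3-2, the second of 160, to Igkv10-94, the 109th.

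The size of the changes depended on how samples were scaled. A median-of-ratios scaling built on the genes of the sample table moves every adipocyte log2 fold change up by 0.93, and scaling to equal totals moves it down by 0.30. That table holds only genes chosen for changing, so neither replaces the authors' scaling. Moved by 0.93, all 36 segments stayed below 0, with a median of -2.96 and a range from -7.51 to -0.44. No sign could turn, since the weakest listed change was -1.37. Of the 36, 15 still passed the largest unadjusted p that the authors' list admits. Igha, Ighg1, Ighv1-19, Ighv3-6, Igkv5-43 and Igkv10-94 were among the 15, while Ighd, Ighj2, Ighv7-1, Ighv1-26, Igkv19-93 and Igkv6-23 were among the 21 that did not. Moved down by 0.30, all 36 passed.

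T cell receptor segments, the counterpart that T cells do assemble, were listed with smaller changes but at higher levels than most immunoglobulin segments. The authors' deposited table for adipocyte medium lists 8 of 270 annotated, 7 lower and 1 higher, with a median of -1.12. Of all genes the authors tested, 14.5% were listed. The means of the 8 ran from 101 to 2764 normalized counts, against a median of 47.0 over the 36 immunoglobulin segments. A low gene can be listed only with a large change, so these medians do not compare segments of like level. They were Trgc2 at -1.80, Trgv2 at -1.70, Trgv1 at -1.40, Trgc4 at -1.17, Trbv14 at -1.07, Trbv16 at -1.02, Trbv1 at -0.93 and Trav14-3 at 1.02 in the authors' deposited table. None was listed in stromal medium (0).

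The sample table does hold genes whose proteins work with antibodies, and these show each mouse. Of 23 listed partners and co-receptors of the B cell receptor, 6 are in it, and 5 are described here: Cd79a, Cd79b, Syk, Btk and Fcmr. Fcmr and Btk are named after their values were seen, to complete the list. Values below are the authors' normalized counts, in the order of mouse 1, 2 and 3, and tests are limma on log2(value + 1) over 2868 genes with Benjamini-Hochberg adjustment. In that fit 63.4% of genes were called lower and 33.8% higher in adipocyte than in unconditioned medium, so a call there is the rule among these preselected genes. DESeq2 on the reads recovered from the table, with its own size factors, split them as 1042 lower and 1090 higher, against 1818 and 969 in limma.

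Cd79b, which encodes a signalling chain of the receptor, had 1031, 978 and 1005 normalized counts in unconditioned medium, 1077, 803 and 932 in stromal medium and 187, 226 and 134 in adipocyte medium. The adipocyte samples lie far below the other 6, which overlap. Its log2 difference from unconditioned medium was -2.49 (SE 0.18, limma adjusted p 6.03e-08) in adipocyte and -0.11 (SE 0.18, adjusted p 0.614) in stromal medium. Cd79a, the other signalling chain, had 586, 456 and 595 normalized counts in unconditioned, 493, 272 and 453 in stromal and 174, 167 and 162 in adipocyte medium. Its adipocyte values were below all others, by -1.68 (SE 0.21, limma adjusted p 5.03e-06) against unconditioned medium, and the stromal difference of -0.46 did not pass (limma adjusted p 0.0759), whereas a fit blocked by mouse gave an adjusted p of 0.0404. Mouse 2 was the lowest of the stromal samples for both chains.

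Fcmr, the Fc receptor for IgM, had 334, 150 and 275 normalized counts in unconditioned, 245, 191 and 242 in stromal and 51.8, 37.8 and 60.6 in adipocyte medium, a log2 difference of -2.26 (SE 0.29, limma adjusted p 7.06e-06) for the last.

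Btk, a kinase of receptor signalling also used by myeloid cells, had 180, 189 and 237 normalized counts in unconditioned, 202, 271 and 237 in stromal and 59.0, 86.4 and 37.1 in adipocyte medium, with a log2 difference of -1.78 (SE 0.28, limma adjusted p 3.86e-05) for adipocyte medium. Syk, the kinase that binds the signalling chains, had 608, 573 and 728 normalized counts in unconditioned, 428, 574 and 631 in stromal and 138, 325 and 361 in adipocyte medium. Its adipocyte log2 difference of -1.32 (SE 0.30, limma adjusted p 8.57e-04) did not pass under a median-of-ratios scaling (adjusted p 0.237) or in DESeq2 on the recovered reads (adjusted p 0.350). In adipocyte medium all 3 values of each of the 5 genes lay below all 3 of unconditioned medium.

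Against stromal medium, where 57.2% of genes were called lower and 33.8% higher, all 5 were lower in adipocyte medium too, from -2.38 for Cd79b to -1.08 for Syk (limma adjusted p 0.00403). Between stromal and unconditioned medium, where 36.6% were called lower and 21.1% higher, 0 of the 5 passed limma in either direction, with 1 lower (Cd79a) at an unadjusted p under 0.05. The differences ran from -0.46 for Cd79a to 0.23 for Btk. EdgeR called 0 of them and DESeq2 1 (Btk, higher), and the sign for Cd79b, Fcmr and Syk turned under a median of ratios.

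**Figure D4:**
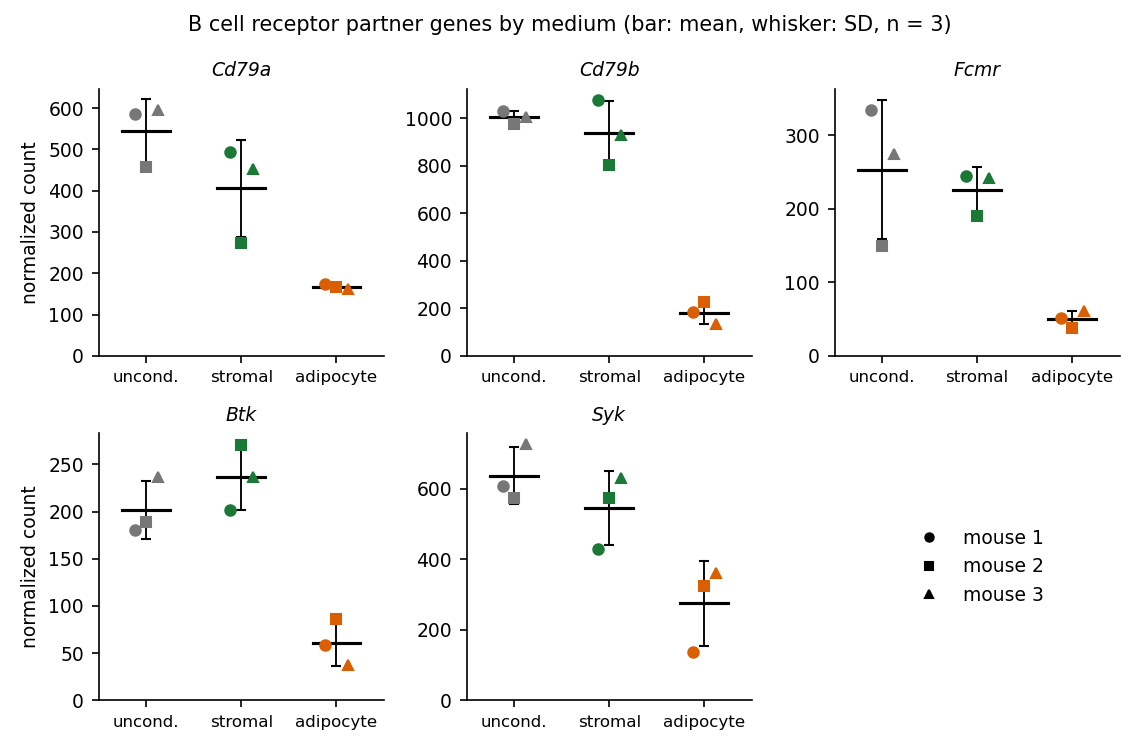
Authors' normalized counts (vertical axis, from 0) of 5 receptor partner genes in each of the 9 samples, by medium, with a line for the mean and whiskers for the SD of 3 mice. In every panel the adipocyte points lie below all unconditioned points, and the stromal points overlap the unconditioned ones.

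Of 13 listed Fc receptors, which bind the antibody constant regions, 5 are in the sample table. All 5 were lower in adipocyte medium, where 63.4% of all tested genes were called lower. The authors listed 5 of the 13 as changed in that medium, so this count was largely fixed by how the genes were chosen. Under a median of ratios all 5 stayed below 0 and 3 of them passed. Fcgrt, the receptor that protects IgG from breakdown, had 586, 728 and 808 normalized counts in unconditioned, 174, 252 and 289 in stromal and 89.2, 103 and 134 in adipocyte medium. It differed from Cd79b in having fallen in stromal medium as well, by 1.59 on the log2 scale (limma adjusted p 6.42e-05), after -2.70 in adipocyte medium (adjusted p 1.65e-07). Fcgr3, an activating IgG receptor of myeloid and natural killer cells, stood at -1.32 in adipocyte and -1.03 in stromal medium (limma adjusted p 2.58e-05 and 6.85e-04). Fcrla and Fcer2a, both of B cells, stood at -3.22 and -1.98 in adipocyte medium (limma adjusted p 1.91e-04 and 0.0163) and did not pass in stromal medium.

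Genes of recombination and class switching split in direction, in a fit that called 63.4% of all tested genes lower and 33.8% higher in adipocyte medium. Of 22 on the list 10 were tested, and 6 fell and 4 rose in adipocyte medium, although under a median of ratios 2 fell and 5 rose, Prkdc having turned to 0.52. Xrcc5, a DNA repair gene that all cells use, stood at -1.12 (limma adjusted p 3.63e-07), and Dntt, which adds bases at V(D)J joints and was named after its values were seen, at -1.93 (adjusted p 6.37e-07). The 4 that rose were Il4, Il21, Ifng and Batf, the first 3 being cytokines of T cells that direct class switching in B cells. Il4 had 144, 185 and 199 normalized counts in unconditioned, 326, 556 and 319 in stromal and 8856, 4358 and 6172 in adipocyte medium, a log2 difference of 5.14 (SE 0.26, limma adjusted p 1.14e-08). Of 22 transcription factors of the immunoglobulin loci 8 were tested, with 3 lower and 5 higher against the same background. All 8 are among the genes the authors listed for adipocyte medium. Under a median of ratios 2 were still called lower and 5 higher, and Id3, 1 of the 3 lower, turned to 0.04. The 5 higher in limma were Id1 at 3.20 (named after its values were seen), Nfkb1 at 1.27, Rel at 1.14, Irf8 at 1.00 and Pou2f1 at 0.86 (limma adjusted p from 1.02e-07 to 3.78e-06).

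Most tested markers of several cell types were lower in adipocyte medium, where 63.4% of all tested genes were called lower and 33.8% higher. Whether they moved together with the segments could not be looked at, since the segments have no values by sample. Of 27 B cell markers 15 are in the sample table, which holds only genes chosen for changing. The authors listed 14 of the 27 as changed in adipocyte medium. All 15 were lower in that medium, a count largely fixed by how the genes were chosen. Their median log2 difference was -1.78 against -1.03 over all genes tested. Of the 15, 8 passed under a median-of-ratios scaling and 8 in DESeq2, where Cd37 turned to 0.11 and 0.12. Their summed level was 21913 to 24349 normalized counts in unconditioned, 17769 to 22925 in stromal and 9626 to 11563 in adipocyte medium. In stromal medium 1 of the 15 was lower, Cd37 (limma adjusted p 2.86e-06), which is also expressed by T cells. Of 21 T cell markers only 4 were tested, all 4 among the genes the authors listed for adipocyte medium. These 4 were lower there too, under a median of ratios as well. Their sum was 86513 to 97969 normalized counts in unconditioned and 32578 to 35237 in adipocyte medium. The other T cell markers are not in the sample table, so no general fall of such markers can be read from these 4. Cd3e, the T cell marker of the isolation, had a mean of 35658 normalized counts in unconditioned medium. Of 12 myeloid markers 7 were tested, with 5 lower and 1 higher, Cebpb, and Lyz2 stood at -4.04 (limma adjusted p 1.51e-06). Of 12 plasma cell markers only Tnfrsf13b is in the table, at -1.49 (limma adjusted p 6.47e-08). How much these cell types contributed to the fall of the segments was not tested.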

How the data were processed

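Libraries of 9 samples were made by Nextera XT from cDNA of the SMART-seq v4 kit, per the labels' protocols. FastQC, Trimmomatic, featureCounts and DESeq2 are named, with the builds GRCm39, GRCh38 and hg38 and no role for each, per the submitters' processing notes; the sources used here do not give the aligner, annotation or strand setting. Such libraries keep no strand.

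The authors' deposited sample table holds a normalized signal per gene (counts over a size factor), since 100% of its values are whole reads within 0.001, 6522742 to 13758643 reads per sample over its 2889 genes. Per the file headers, the authors' comparison tables hold a mean signal, a log2 fold change with SE, a Wald score, a p-value and an adjusted p-value. The authors' test was beyond 1.5-fold, as the score shows. Rows were named by symbol or through GENCODE M21 (12 IDs of the adipocyte and 4 of the stromal table have no name), read for names, classes, strand, order and transcripts only. Genes tested by the authors were recovered from their p-values.

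The trend method of limma 3.58.1 (R 4.3.3) was fitted to log2(value + 1), with all samples in 1 fit and the 2868 genes whose mean reached 1, two-sided, adjusted by Benjamini-Hochberg at 0.05; edgeR 4.0.16 and DESeq2 1.42.0 ran on recovered reads. The fit was tested on simulated data. Unadjusted intervals of 95% use the authors' SE. Tests of the segments planned in limma could not be made, since no segment is in the sample table. Same-numbered samples come from the same mouse, per the labels; the correlations of their deviations ran from -0.12 to 0.26, and those between mice from -0.20 to 0.14.

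Segments, lists and tests were chosen with earlier results of these data known. All segments are named; full values go to the 2 highest means and the 2 most extreme changes at each end of a class and to constant genes, and up to 4 genes of highest mean are named per list. The values of some listed genes are not reported here.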

Additional observations from a re-analysis of the deposited data

How the results depend on the processing

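At an adjusted p of 0.01, 21 of the 36 segments lower in adipocyte medium were left, and 15 after a median-of-ratios shift. With symbols from the file only, 0 segments were higher in stromal medium, because the name of Ighv1-36 came from its ID. A mean of at least 10 and equal totals kept both counts within 1.5 times. The alternatives planned for segments in limma could not be run, since the sample table lists none, and were applied to the B cell and receptor partner lists instead, a choice made after seeing the data, as were the scaling shifts.

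Of the 15 B cell markers lower in adipocyte medium, 8 remained under a median of ratios and 8 in DESeq2. With the mouse as a replicate block, the B cell markers called in stromal medium were 2 lower and 1 higher, and the partner genes 1 lower (Cd79a), from 1, 0 and 0; the block moved no other count by over 1.5 times. B cell markers higher in stromal medium numbered 2 under a median of ratios, 1 in edgeR and 3 in DESeq2, where 1 partner gene (Btk) was higher too. Leaving out 1 replicate or sample at a time, they ran from 0 to 2 higher (2 without stromal replicate 2) and 1 to 2 lower, and partner genes from 0 to 1 lower (1 without stromal replicate 1). Cd37, the 1 marker higher in adipocyte than in stromal medium, gave 0 under equal totals and 0 to 1 in the leave-outs (0 without replicate 1, replicate 3, stromal replicate 1 or adipocyte replicate 3). The cause was not tested. Over all genes, DESeq2 called 584 lower and 1173 higher in stromal medium (limma 1049 and 606), and 1090 lower and 1178 higher in adipocyte against stromal medium (limma 1641 and 968). With 3 mice a group, no segment values by sample and small mean counts, single segments are the least certain.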
